A study of Mus musculus with 9 samples.

Results

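The genes described here are 30 genes that mark macrophages and monocytes in the mouse spleen, read in RNA of sorted splenic T cells. They were chosen by symbol, as the rows of the deposited count table whose Ensembl identifiers carry the 30 names, and all 30 were found among 29229 genes of the table. The 9 libraries fall into 3 groups of 3. Naive libraries came from healthy C57BL/6 mice that had no transplant. Syngeneic libraries came from B6.SJL-Ptprca Pepcb/BoyJ recipients (H-2b, CD45.1), irradiated with 9.5 Gy and given 8500000 splenic T cells. Allogeneic libraries came from CByJ.SJL(B6)-Ptprca/J recipients (H-2d, CD45.1), irradiated with 8 Gy and given 1000000 splenic T cells. Both kinds of recipient also had 5000000 T-cell-depleted bone marrow cells, all donor cells were C57BL/6 (CD45.2), donors and recipients were female and 8 to 12 weeks old (the protocol kept with the naive samples gives that age for C57BL/6 mice as donors, with none for naive mice by themselves), and spleens were taken on day 7. Cells of 2 to 4 recipients were pooled for each library of the transplant groups. T cells of all groups were enriched with magnetic beads and sorted as live, CD3+ and CD45.2+, a gate whose CD45.2 part the progeny of the donor marrow share. The transplant groups therefore differ in radiation dose, T-cell number and recipient strain together, and these cannot be told apart.

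Macrophages of the splenic red pulp take up old red cells, break down their heme and return the iron. Their development depends on the transcription factor SPI-C, and they are known by VCAM-1, F4/80 (Adgre1), CD163 and the secreted protein CD5L. Macrophages of the marginal zone carry MARCO or sialoadhesin (Siglec1) and face the blood. Monocytes, their circulating relatives, are rich in lysozyme, cathepsin S and Fc receptors, and share the growth factor receptor CSF1R with macrophages. T cells do not use most of these genes, but some of them, such as Ctss and Cd68, are not restricted to phagocytes.

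The T-cell label was borne out by its markers: all 10 listed T-cell genes were detected in each library, with a summed level of 4288 to 4689 CPM (counts per 1000000 counts of the library) in naive, 3101 to 3773 CPM in syngeneic libraries and 4228 to 4482 CPM in allogeneic ones. Library totals ran from 103953932 to 176678189 counts, so that 3 counts over a group, the limit that a count of 0 allows, are worth 0.00819 CPM in naive, 0.00866 CPM in syngeneic libraries and 0.00753 CPM in allogeneic ones. In each transplant group replicate 1 stood apart over all genes. The chi-square of its counts per degree of freedom was 136 and 114 against the other syngeneic libraries, which differed by 33.3, and 362 and 335 against the other allogeneic libraries, which differed by 44.6. The ribosomal locus (Gm26917 and Gm42418) took 15.8 to 18.8% of counts in naive and 19.4 to 22.4% in syngeneic libraries, and 17.2, 9.06 and 7.87% in allogeneic replicates 1 to 3. Its part in the results was not tested beyond leaving it out of the library sizes. That left the number of called genes among the 30 the same in each comparison. Over all genes the numbers shifted, in allogeneic against syngeneic libraries from 4766 higher and 4066 lower to 4552 higher and 4189 lower. In syngeneic replicate 1, 29 of the 30 genes were at their lowest of the 3 syngeneic libraries, Ctss being the exception. The share over all genes is not given here, and 14 of 15 other monocyte genes and 7 of 11 phagolysosome genes were also higher in replicate 2 than in replicate 1. Markers of erythroid cells and neutrophils also differed from naive libraries. All 11 measured erythroid markers were higher in syngeneic than in naive libraries, with a summed level of 2.89 to 3.58 CPM in naive, 1996 to 5364 CPM in syngeneic libraries and 22.7 to 77.7 CPM in allogeneic ones. All 10 neutrophil markers were higher in both transplant groups than in naive libraries, with sums of 2.17 to 6.21, 416 to 1390 and 625 to 1117 CPM. Of all genes, 22.4% were called higher in syngeneic and 31.8% in allogeneic against naive libraries. In allogeneic against syngeneic libraries all 11 erythroid markers were lower, where 20.7% of all genes were called lower by the test given below. No neutrophil marker was called there, and 3 were called lower without syngeneic replicate 1. No erythroid or neutrophil marker was without counts in all libraries of a group, and the part of these cells in the results was not tested. In RNA of bulk cells, more cells of a type and more RNA per cell cannot be told apart.

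Of the 30 genes, 27 rose and 1 fell in syngeneic against naive libraries (edgeR's quasi-likelihood test, Benjamini-Hochberg adjusted p under 0.05), where 22.4% of all 19609 genes tested were called higher and 19.5% lower. In allogeneic against naive libraries 19 rose and 2 fell, where 31.8% of all genes were called higher and 25.9% lower. In allogeneic against syngeneic libraries 3 rose and 20 fell, where 24.3% of all genes were called higher and 20.7% lower. The median log2 fold changes of the 30 genes were 4.48, 3.33 and -1.98 in these comparisons, beside 0.01, -0.01 and -0.02 over all genes tested. Without syngeneic replicate 1 the counts were 29 higher and 1 lower, 20 higher and 3 lower, and 3 higher and 23 lower. Without allogeneic replicate 1 they were 27 and 1, 19 and 2, and 3 and 17, with Spic, Lyz2 and Msr1 no longer called lower. The 2 comparisons with naive libraries share those libraries. All 30 genes passed the filter on low counts, and 15 of them were under 0.1 CPM in naive libraries, so that these passed through the counts of the transplant groups. The group mean was highest in syngeneic libraries for 24 genes, in allogeneic libraries for 5 (Hmox1, Axl, Cd68, Fcgr4 and Fcer1g) and in naive libraries for 1 (Ctss).

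**Figure D1:**
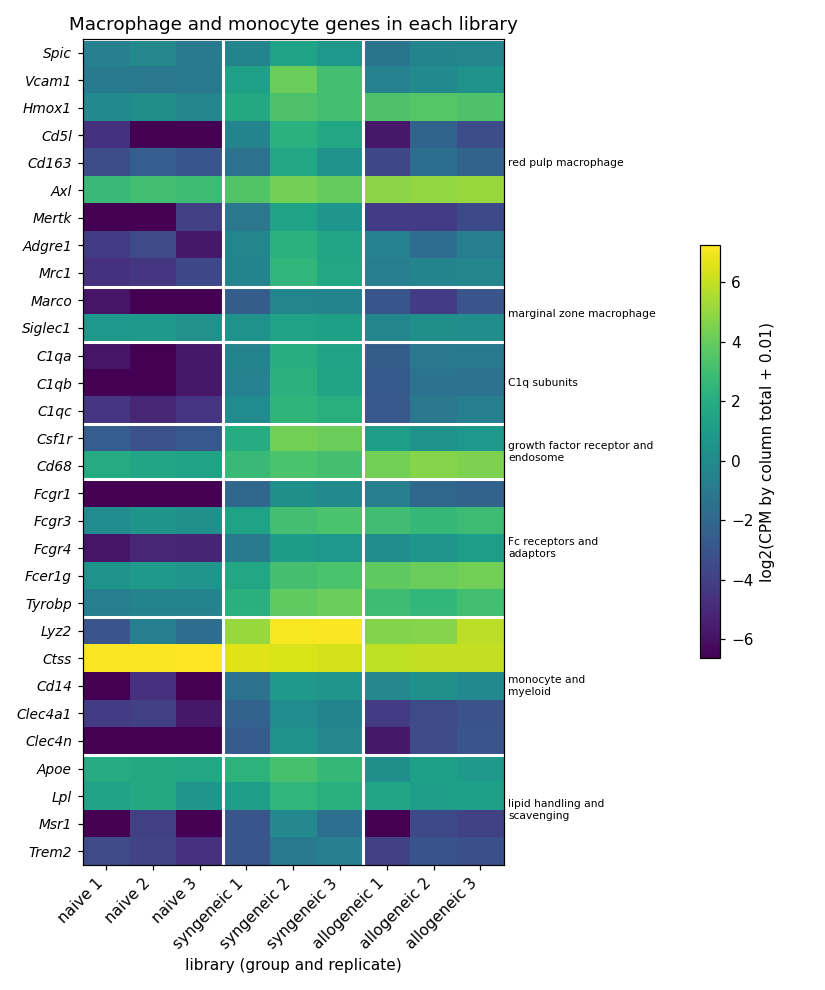
Level of the 30 genes (rows, grouped by role) in the 9 libraries (columns), as log2 of CPM by column total plus 0.01. Most rows are darkest in the naive columns and brightest in syngeneic replicates 2 and 3, while Axl, Cd68 and Fcer1g are brightest in the allogeneic columns and Ctss in the naive columns.

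To show the regulatory sequence in front of these genes, the 250 bases before the transcription start were read from RefSeq (GRCm38.p6) for 19 of the 30 genes that its promoter table held, in 22 promoters. These 19 genes did not all change in the same direction. The word GAGGAA, the core of the site of PU.1, the master regulator of macrophage and monocyte genes, was searched on both strands (TTCCTC on the other), overlapping matches included. It stood in a promoter of 14 of the 19 genes, and in that of 25.9% of all 27025 genes of the table. Of 2 other words, TTGCNNAA, a core word of C/EBP factors, stood in 2 of the 19 genes (10.8% of all genes), and TGACNNNGC, the element of NRF2 and BACH1, in 1 of the 19 (11.5% of all genes), and no words of different kinds overlapped. A match is a description of letters and not a site. The promoters below were picked for roles that the results turn on and for a RefSeq start close to the annotated start of the gene. All of those printed hold the PU.1 word, which is in capitals on either strand, so they do not show how common it is. The promoters of 5 of the 19 genes lacked it and none of these is printed, although the start of Cd163, for example, was also close.
C1qb, chr4:136886201-136886450, minus strand: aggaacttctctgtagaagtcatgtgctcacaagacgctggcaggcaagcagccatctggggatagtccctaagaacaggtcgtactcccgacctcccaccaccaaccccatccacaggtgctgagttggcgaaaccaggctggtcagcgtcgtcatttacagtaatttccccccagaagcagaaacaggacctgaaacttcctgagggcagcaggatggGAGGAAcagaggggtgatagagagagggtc
Cd5l, chr3:87357631-87357880, plus strand: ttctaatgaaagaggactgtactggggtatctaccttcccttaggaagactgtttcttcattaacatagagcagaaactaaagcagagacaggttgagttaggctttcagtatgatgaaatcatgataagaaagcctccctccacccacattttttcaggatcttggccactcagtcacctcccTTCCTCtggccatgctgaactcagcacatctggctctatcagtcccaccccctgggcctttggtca
Mrc1, chr2:14229164-14229413, plus strand: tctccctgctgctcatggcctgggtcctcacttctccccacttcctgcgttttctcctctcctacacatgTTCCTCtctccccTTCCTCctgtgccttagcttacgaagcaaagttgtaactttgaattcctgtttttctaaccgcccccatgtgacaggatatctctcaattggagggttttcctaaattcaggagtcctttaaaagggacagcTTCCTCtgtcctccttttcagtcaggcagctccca
Marco, chr1:120505025-120505274, minus strand: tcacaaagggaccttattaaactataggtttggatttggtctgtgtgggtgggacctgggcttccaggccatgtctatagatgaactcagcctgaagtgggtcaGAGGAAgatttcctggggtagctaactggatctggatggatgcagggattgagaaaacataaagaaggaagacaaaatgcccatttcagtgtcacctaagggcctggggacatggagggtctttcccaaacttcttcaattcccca
Fcgr4, chr1:171018676-171018925, plus strand: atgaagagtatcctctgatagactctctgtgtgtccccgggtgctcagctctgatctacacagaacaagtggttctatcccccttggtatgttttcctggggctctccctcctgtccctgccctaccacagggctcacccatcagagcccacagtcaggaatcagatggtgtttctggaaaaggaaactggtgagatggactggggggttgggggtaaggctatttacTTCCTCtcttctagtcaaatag
Clec4a1, chr6:122921598-122921847, plus strand: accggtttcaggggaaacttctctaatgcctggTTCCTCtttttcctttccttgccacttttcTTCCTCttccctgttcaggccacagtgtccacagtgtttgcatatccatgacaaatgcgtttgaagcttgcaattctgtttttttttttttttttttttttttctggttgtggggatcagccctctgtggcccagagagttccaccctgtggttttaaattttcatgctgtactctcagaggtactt
Axl, chr7:25788734-25788983, minus strand: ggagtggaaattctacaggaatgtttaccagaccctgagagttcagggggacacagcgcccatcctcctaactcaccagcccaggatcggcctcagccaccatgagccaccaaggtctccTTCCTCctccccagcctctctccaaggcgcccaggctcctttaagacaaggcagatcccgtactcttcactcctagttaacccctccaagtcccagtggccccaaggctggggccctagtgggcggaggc
The word began 30 bases before the start in C1qb, 66 in Cd5l, 146 in Marco, 22 in Fcgr4 and 130 in Axl. Clec4a1 had it 217 and 187 bases before the start, and Mrc1 180, 167 and 35 bases before it. The 5 genes whose promoters in the table lacked the word were Cd163, Fcer1g, Lyz2, Mertk and Spic. Axl, whose levels were highest in allogeneic libraries, held the word as did C1qb and Cd5l, whose levels were highest in syngeneic libraries. Ctss, which was called lower in all 3 comparisons, held it too.

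Genes of red pulp macrophages rose in syngeneic recipients, and 4 of them were not told apart from naive in allogeneic recipients. All 9 genes of the group were higher in syngeneic than in naive libraries, 5 were higher in allogeneic than in naive libraries, and 7 fell in allogeneic against syngeneic libraries while Axl rose and Hmox1 was not called. The shares of all genes called were 22.4% higher, 31.8% higher and, between the transplant groups, 20.7% lower and 24.3% higher. The 4 not called against naive were Spic, Vcam1, Cd163 and Mertk. Without syngeneic replicate 1 the counts against syngeneic libraries were also 1 higher and 7 lower. The summed level of the 9 genes was 9.09 to 11.1 CPM in naive, 20.9, 70.1 and 45.7 CPM in syngeneic libraries and 40.6 to 48.3 CPM in allogeneic ones, and Axl and Hmox1 made up most of the allogeneic sum.

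Spic (ENSMUSG00000004359, chromosome 10, 88674772 to 88685015 of GRCm38), the transcription factor that red pulp macrophages need, was at 0.643, 0.900 and 0.532 CPM in naive, 0.729, 2.66 and 1.67 CPM in syngeneic libraries and 0.407, 0.758 and 0.808 CPM in allogeneic ones. Only syngeneic replicates 2 and 3 lay above all naive libraries, and syngeneic replicate 1 lay among the naive and allogeneic values. Its log2 fold change was 1.30 ± 0.41 (SE) in syngeneic against naive (adjusted p = 0.0229) and -1.33 ± 0.41 in allogeneic against syngeneic libraries (adjusted p = 0.0198). Both calls of Spic rested on single libraries, and without syngeneic replicate 1 the values were 1.64 and -1.67. Against naive, the adjusted p was 0.0725 without naive replicate 1, 0.0797 without naive replicate 3, 0.128 without syngeneic replicate 2 and 0.0537 without syngeneic replicate 3. Against allogeneic, it was 0.105 without syngeneic replicate 2 and 0.0682 without allogeneic replicate 1.

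Vcam1 (ENSMUSG00000027962, chromosome 3, 116109949 to 116129688), the adhesion molecule VCAM-1, was at 0.492, 0.467 and 0.471 CPM in naive, 2.43, 17.1 and 8.10 CPM in syngeneic libraries and 0.712, 0.968 and 1.38 CPM in allogeneic ones. The 3 groups did not overlap, and syngeneic replicate 1 was nearest to the allogeneic libraries. Its log2 fold change was 4.27 ± 0.56 in syngeneic against naive (adjusted p = 0.000109) and -3.15 ± 0.53 in allogeneic against syngeneic libraries (adjusted p = 0.000586), and 4.71 and -3.58 without syngeneic replicate 1. The difference of 1.13 ± 0.53 between allogeneic and naive libraries was not called (adjusted p = 0.0876), but was called in a fit of these 2 groups alone (adjusted p = 0.00761), without syngeneic replicate 1 (0.00654) and without syngeneic replicate 2 (0.0301).

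Cd5l, a secreted protein of tissue macrophages whose promoter is shown above, had 4, 0 and 0 counts in naive libraries and stood at 0.767, 4.56 and 3.10 CPM in syngeneic libraries and 0.00848, 0.209 and 0.0866 CPM in allogeneic ones. All syngeneic values were above all others, and allogeneic replicate 1 lay among the naive libraries. Its log2 fold change in allogeneic against syngeneic libraries was -4.66 ± 0.82 (adjusted p = 0.000828), and -5.08 without syngeneic replicate 1. The call of Cd5l in allogeneic against naive libraries (3.24 ± 1.26, adjusted p = 0.0452) was lost without naive replicate 2 (0.125) or 3 (0.114), without syngeneic replicate 3 (0.056), without allogeneic replicate 2 (0.262) or 3 (0.07), by DESeq2 (0.0521), by limma-voom (0.21) and with column totals alone as scaling (0.0571).

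Mertk, a receptor tyrosine kinase for apoptotic cells, had 0, 0 and 6 counts in naive libraries and stood at 0.437, 2.51 and 1.53 CPM in syngeneic libraries and 0.0424, 0.0453 and 0.077 CPM in allogeneic ones. Its fall from syngeneic to allogeneic libraries, by 4.74 ± 0.78 on the log2 scale (adjusted p = 0.000554), was the largest of the 30 genes in this fit, and it was -5.16 without syngeneic replicate 1. Against naive, the allogeneic libraries differed by 1.67 ± 1.11 (adjusted p = 0.216), and the adjusted p was 0.0248 without naive replicate 3, which held all the naive counts; the allogeneic level was then at least 4.42-fold higher than 3 counts over the other naive libraries. Cd163, the scavenger receptor for hemoglobin bound to haptoglobin, followed the same order of groups, at 0.125 ± 0.0405 CPM (SD, n = 3) in naive, 1.58 ± 1.37 CPM in syngeneic libraries and 0.196 ± 0.125 CPM in allogeneic ones. Naive and allogeneic values of Cd163 overlapped (0.71 ± 0.73, adjusted p = 0.419), and it fell by 2.95 ± 0.68 in allogeneic against syngeneic libraries (adjusted p = 0.00457; -3.40 without syngeneic replicate 1).

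Adgre1 and Mrc1 kept a raised level in allogeneic libraries. Adgre1, which encodes F4/80, was at 0.0434, 0.0794 and 0.00872 CPM in naive, 0.813, 4.58 and 2.88 CPM in syngeneic libraries and 0.712, 0.306 and 0.596 CPM in allogeneic ones. Mrc1, the mannose receptor CD206, was at 0.0289, 0.0353 and 0.0698 CPM in naive, 0.744, 5.63 and 3.03 CPM in syngeneic libraries and 0.636, 0.758 and 0.789 CPM in allogeneic ones. For Adgre1 no groups overlapped, while for Mrc1 syngeneic replicate 1 lay among the allogeneic libraries. Adgre1 rose by 3.65 ± 0.74 and Mrc1 by 4.06 ± 0.69 in allogeneic against naive libraries (adjusted p = 0.00132 and 0.000397), and they fell by 2.30 ± 0.58 and 2.06 ± 0.53 in allogeneic against syngeneic libraries (adjusted p = 0.00741 and 0.00859), with values of -2.73 and -2.51 without syngeneic replicate 1. The call of Mrc1 in the last comparison was lost by limma-voom (adjusted p = 0.0509).

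Axl and Hmox1 had another order of groups. Axl (ENSMUSG00000002602, chromosome 7, 25757273 to 25788705), a receptor tyrosine kinase of the same family as Mertk, was at 6.78, 8.28 and 7.32 CPM in naive, 11.2, 19.7 and 15.6 CPM in syngeneic libraries and 27.8, 32.1 and 34.2 CPM in allogeneic ones. The groups of Axl rose in that order without overlap, with log2 fold changes of 1.09 ± 0.15 in syngeneic against naive (adjusted p = 0.000182) and 1.04 ± 0.15 in allogeneic against syngeneic libraries (adjusted p = 0.000232), and 1.24 and 0.89 without syngeneic replicate 1. Hmox1 (ENSMUSG00000005413, chromosome 8, 75093621 to 75100589), heme oxygenase 1, which opens the heme ring, was at 0.983, 1.15 and 0.785 CPM in naive, 3.38, 10.2 and 8.41 CPM in syngeneic libraries and 10.3, 11.7 and 10.1 CPM in allogeneic ones. Hmox1 rose by 2.93 ± 0.32 in syngeneic and by 3.51 ± 0.33 in allogeneic against naive libraries (adjusted p = 3.02e-05 and 3.7e-06), the first being 3.25 without syngeneic replicate 1. The transplant groups of Hmox1 overlapped and their difference of 0.58 ± 0.29 was not called (adjusted p = 0.126), except without syngeneic replicate 2 (0.87, adjusted p = 0.0442).

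Both marginal zone genes fell in allogeneic against syngeneic libraries, where 20.7% of all genes were called lower. Marco alone was called against naive libraries. Marco, a scavenger receptor for bacteria, had 1 count in all naive libraries together and stood at 0.161, 0.825 and 0.719 CPM in syngeneic libraries and 0.119, 0.0453 and 0.115 CPM in allogeneic ones. The ratio of its syngeneic to its naive level over the groups was 199 (95% exact interval 35.2 to 7892, counting error only), and it fell by 2.58 ± 0.62 in allogeneic against syngeneic libraries (adjusted p = 0.00596; -3.02 without syngeneic replicate 1). Siglec1, the sialic acid receptor sialoadhesin, was at 1.57 ± 0.277 CPM in naive, 2.11 ± 0.659 CPM in syngeneic libraries and 1.04 ± 0.197 CPM in allogeneic ones. It fell by 1.00 ± 0.25 in allogeneic against syngeneic libraries (adjusted p = 0.00774; -1.20 without syngeneic replicate 1), where the groups did not overlap. Against naive it was not called in syngeneic (0.45 ± 0.25, adjusted p = 0.176) or allogeneic libraries (-0.55 ± 0.25, adjusted p = 0.0807), and both were called without syngeneic replicate 1 (adjusted p = 0.0416 and 0.0451).

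The 3 chains of complement C1q, the recognition molecule of the classical complement pathway, changed together. C1qa, C1qb and C1qc lie side by side on the minus strand of chromosome 4 (136895917 to 136898803, 136880129 to 136886187 and 136889804 to 136893065). C1qa was at 0.729, 3.97 and 2.68 CPM in syngeneic libraries and 0.161, 0.464 and 0.481 CPM in allogeneic ones, with 2 counts in all naive libraries together. C1qb was at 0.714, 4.79 and 2.78 CPM in syngeneic libraries and 0.144, 0.379 and 0.366 CPM in allogeneic ones, with 1 naive count. C1qc was at 1.04, 5.30 and 4.18 CPM in syngeneic libraries and 0.136, 0.458 and 0.616 CPM in allogeneic ones, and at 0.0296 ± 0.0103 CPM in naive libraries. For each chain the 3 groups did not overlap, and replicate 1 was the lowest library of both transplant groups. Over the groups, the syngeneic level of C1qa was 430 times the naive level (95% exact interval 119 to 3559) and that of C1qb 962 times (172 to 38042), and the allogeneic levels were 69.4 times (18.9 to 578) and 112 times (19.8 to 4465). The fall from syngeneic to allogeneic libraries was -2.71 ± 0.55 for C1qa, -3.18 ± 0.59 for C1qb and -3.10 ± 0.57 for C1qc on the log2 scale (adjusted p = 0.00205, 0.00121 and 0.00114), and -3.12, -3.61 and -3.52 without syngeneic replicate 1. The call of C1qc in allogeneic against naive libraries (3.72 ± 0.76, adjusted p = 0.00142) was lost by limma-voom (0.0534). Among allogeneic libraries the erythroid sum was highest, at 77.7 CPM, in replicate 1, and its part in these values was not tested.

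**Figure D2:**
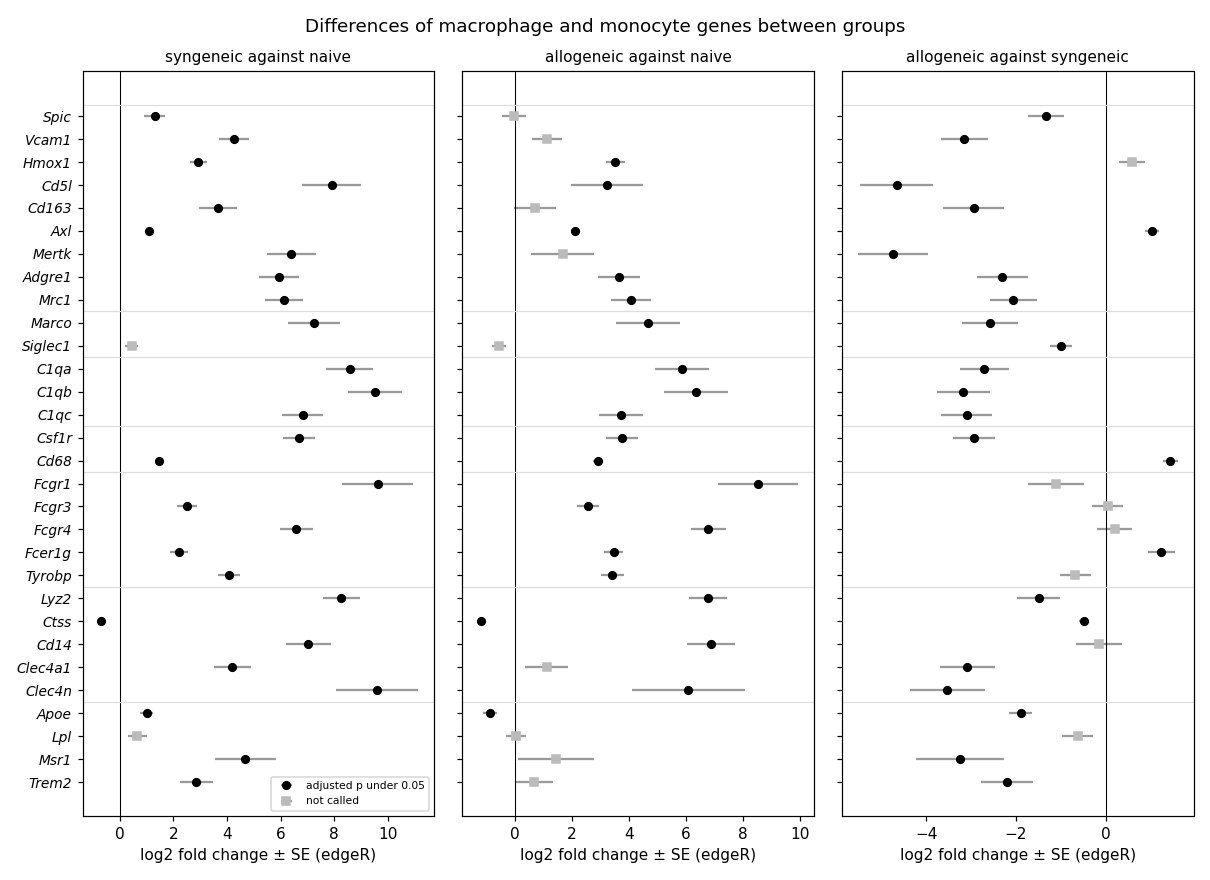
Log2 fold change with its standard error (edgeR) of the 30 genes in the 3 comparisons; black circles passed at an adjusted p under 0.05 and grey squares did not, and fitted values of genes with almost no naive counts, such as Fcgr1 and Clec4n, depend on the fit's prior count. Red pulp, marginal zone and C1q genes lie left of 0 in the right panel except Axl and Hmox1. The Fc receptor group lies on both sides of 0 there, from Fcgr1 at -1.11 to Fcer1g at 1.24, the only one of the group called.

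Csf1r and Cd68, general genes of the lineage, went in different directions between the transplant groups. Csf1r (ENSMUSG00000024621, chromosome 18, 61100598 to 61132149), the receptor for CSF1 and IL-34, was at 0.166, 0.097 and 0.131 CPM in naive, 3.78, 19.6 and 17.6 CPM in syngeneic libraries and 2.09, 1.36 and 1.68 CPM in allogeneic ones. All groups of Csf1r were apart, with log2 fold changes of 6.68 ± 0.60 in syngeneic and 3.74 ± 0.57 in allogeneic against naive (adjusted p = 6.71e-06 and 0.000169) and -2.94 ± 0.48 between the transplant groups (adjusted p = 0.00049), the first and last being 7.11 and -3.36 without syngeneic replicate 1. Hmgxb3 overlaps Csf1r on the opposite strand, and the strand setting (not given in the sources used here) decides whether their reads were kept apart. Cd68, a lysosomal membrane protein, was at 3.75, 3.01 and 2.54 CPM in naive, 6.78, 9.79 and 8.79 CPM in syngeneic libraries and 19.7, 25.8 and 22.5 CPM in allogeneic ones. It rose by 1.48 ± 0.16 in syngeneic against naive and by a further 1.44 ± 0.16 in allogeneic against syngeneic libraries (adjusted p = 3.05e-05 and 3.02e-05), or by 1.57 and 1.35 without syngeneic replicate 1.

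Fc receptors, which bind antibody on immune complexes, and their signalling adaptors rose in both transplant groups to levels that were mostly not told apart. All 5 genes were higher than in naive libraries in either group, where 22.4% of all genes were called higher in syngeneic and 31.8% in allogeneic libraries. Between the transplant groups only Fcer1g was called, where 24.3% of all genes were called higher and 20.7% lower. Without syngeneic replicate 1, Fcgr1 and Tyrobp were called lower there as well. Fcgr1, the high-affinity receptor for IgG, had no count in naive libraries and stood at 0.238, 1.21 and 0.987 CPM in syngeneic libraries and 0.610, 0.249 and 0.202 CPM in allogeneic ones. Against 3 counts over the naive group it was at least 94.4-fold higher in syngeneic and at least 42.0-fold higher in allogeneic libraries. Its difference between the transplant groups, -1.11 ± 0.62, was not called (adjusted p = 0.173), and was called without syngeneic replicate 1 (-1.53, adjusted p = 0.0331).

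Fcgr4, an activating IgG receptor, was at 0.0141 ± 0.00595 CPM in naive, 0.530, 1.99 and 1.67 CPM in syngeneic libraries and 1.10, 1.53 and 2.09 CPM in allogeneic ones. Fcgr3, a related activating receptor, was at 1.24 ± 0.198 CPM in naive, 2.65, 8.62 and 9.76 CPM in syngeneic libraries and 7.72, 5.97 and 7.19 CPM in allogeneic ones. The transplant groups overlapped for both, with differences of 0.20 ± 0.39 for Fcgr4 and 0.04 ± 0.35 for Fcgr3 (adjusted p = 0.706 and 0.937) that turned to -0.17 and -0.33 without syngeneic replicate 1. Fcgr3 turned also with column totals alone as scaling (-0.00943) and without allogeneic replicate 1 (-0.11), and Fcgr4 without allogeneic replicate 3 (-0.05). Near-identical stretches of Fcgr genes can share reads.

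Fcer1g (ENSMUSG00000058715, chromosome 1, 171229572 to 171234365), the common signalling chain of activating Fc receptors, was at 1.40, 1.82 and 1.52 CPM in naive, 3.12, 8.82 and 9.81 CPM in syngeneic libraries and 13.9, 16.8 and 19.7 CPM in allogeneic ones. All allogeneic values lay above all syngeneic values, and the difference was 1.24 ± 0.30 (adjusted p = 0.00644; 0.90 without syngeneic replicate 1). Tyrobp (ENSMUSG00000030579, chromosome 7, 30413760 to 30417585), the adaptor DAP12 of TREM2 and other activating receptors, was at 0.622, 0.741 and 0.741 CPM in naive, 4.50, 14.4 and 16.7 CPM in syngeneic libraries and 7.70, 5.72 and 8.15 CPM in allogeneic ones. Syngeneic replicate 1 lay under the allogeneic values of Tyrobp and the others above them. Its difference of -0.68 ± 0.35 was not called (adjusted p = 0.136), and was called without syngeneic replicate 1 (-1.04, adjusted p = 0.000931). The sum of 6 NK-cell markers was 69.1 to 74.8 CPM in naive, 175 to 203 CPM in syngeneic libraries and 1101 to 1399 CPM in allogeneic ones. Between the transplant groups 3 of them rose and 3 fell, where 24.3% of all genes were called higher and 20.7% lower. The part of NK cells, and of neutrophils, whose markers are given above, in the Fc receptor and adaptor values was not tested.

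Of the monocyte and myeloid genes, Lyz2 had the highest mean level of the 30 genes per kilobase of annotated exon in syngeneic libraries, 79 CPM per kilobase, beside 64.1 for Ctss and 17.8 for Tyrobp. In syngeneic replicate 1 the order was the other way, with 26.3 CPM per kilobase for Lyz2 and 68.8 for Ctss. Lyz2 (ENSMUSG00000069516, chromosome 10, 117277331 to 117282321), lysozyme M, was at 0.116, 0.635 and 0.305 CPM in naive, 34.7, 136 and 142 CPM in syngeneic libraries and 24.5, 26.1 and 58.3 CPM in allogeneic ones. Both transplant groups lay far above the naive libraries, with log2 fold changes of 8.26 ± 0.69 and 6.76 ± 0.67 (adjusted p = 3.88e-06 and 5.65e-06), and they overlapped each other. The fall of 1.5 ± 0.48 between them (adjusted p = 0.0251) was lost without syngeneic replicate 2 (0.0858) or 3 (0.0932), without allogeneic replicate 1 (0.0824) or 2 (0.0863) and by DESeq2 (0.074), and was -1.89 without syngeneic replicate 1. Neutrophils also make lysozyme M, their markers are given above, and the close paralog Lyz1 can share its reads.

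Ctss (ENSMUSG00000038642, chromosome 3, 95526786 to 95556403), the protease cathepsin S, was the gene of the 30 with the opposite order. It was at 141, 141 and 150 CPM in naive, 93.5, 87.4 and 80.5 CPM in syngeneic libraries and 59.3, 62.2 and 62.9 CPM in allogeneic ones. The 3 groups did not overlap, and Ctss fell by 0.68 ± 0.09 in syngeneic against naive (-0.68, adjusted p = 0.000162) and by 0.49 ± 0.09 in allogeneic against syngeneic libraries (-0.49, adjusted p = 0.00155), with values of -0.79 and -0.38 without syngeneic replicate 1. Its naive level of 106 CPM per kilobase compares with 0.267 for Lyz2 and 0.0228 for Csf1r in the same libraries.

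The remaining genes of this group were low. Cd14, the coreceptor for bacterial lipopolysaccharide, had 3 naive counts and stood at 0.361, 1.75 and 1.49 CPM in syngeneic libraries and 0.907, 1.25 and 0.991 CPM in allogeneic ones. The transplant groups overlapped, and their difference of -0.15 ± 0.51 (adjusted p = 0.826) changed sign without syngeneic replicate 2 (0.20) or 3 (0.03), with the replicate number as a block (0.06) and by limma-voom (0.14). Clec4a1 and Clec4n, C-type lectins of myeloid cells that lie near each other on chromosome 6, fell together, by 3.09 ± 0.61 and 3.53 ± 0.84 in allogeneic against syngeneic libraries (adjusted p = 0.00187 and 0.00803), and their values were -3.50 and -4.01 without syngeneic replicate 1. Clec4n, which encodes dectin-2, had no count in naive libraries, and was at least 93.0-fold higher in syngeneic and at least 8.27-fold higher in allogeneic libraries. Its call in allogeneic against naive libraries (adjusted p = 0.0245) was lost without naive replicate 1 (0.0534) or 2 (0.0538), without allogeneic replicate 2 (0.0562) or 3 (0.0654) and by limma-voom (0.0821). Clec4a1 was at 0.035 ± 0.0233 CPM in naive, 0.665 ± 0.43 CPM in syngeneic libraries and 0.0758 ± 0.0318 CPM in allogeneic ones, and naive and allogeneic values overlapped.

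Genes of lipid handling and scavenging divided into Apoe and Lpl, with counts in all groups, and the low Msr1 and Trem2. Apoe (ENSMUSG00000002985, chromosome 7, 19696109 to 19699188), the lipid carrier apolipoprotein E, was at 3.67, 3.42 and 3.10 CPM in naive, 5.02, 9.09 and 6.11 CPM in syngeneic libraries and 1.18, 2.35 and 1.84 CPM in allogeneic ones. All 3 groups were apart, with the naive libraries between the transplant groups. Apoe rose by 1.02 ± 0.24 in syngeneic and fell by 0.88 ± 0.24 in allogeneic against naive libraries (-0.88; adjusted p = 0.00568 and 0.00908), and differed by -1.90 ± 0.25 between the transplant groups (adjusted p = 0.000106). Without syngeneic replicate 1 the first and last of these were 1.15 and -2.03. Lpl, lipoprotein lipase, was at 2.54 ± 0.963, 3.93 ± 1.77 and 2.46 ± 0.416 CPM in naive, syngeneic and allogeneic libraries and was called in no comparison, and was called higher in syngeneic against naive (0.94, adjusted p = 0.028) and lower in allogeneic against syngeneic libraries (-0.90, adjusted p = 0.0317) without syngeneic replicate 1.

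Msr1, a scavenger receptor for modified lipoproteins, had 0, 6 and 0 naive counts and stood at 0.123, 0.909 and 0.323 CPM in syngeneic libraries and 0, 0.0736 and 0.0577 CPM in allogeneic ones. Its fall of 3.25 ± 0.99 (adjusted p = 0.0195) was lost without syngeneic replicate 2 (0.115), without allogeneic replicate 1 (0.0525) or 3 (0.053) and by DESeq2 (0.116), and was -3.68 without syngeneic replicate 1. Trem2, a receptor for lipids that signals through DAP12, was at 0.0558 ± 0.0272 CPM in naive, 0.417 ± 0.26 CPM in syngeneic libraries and 0.0868 ± 0.0322 CPM in allogeneic ones. Trem2 fell by 2.2 ± 0.58 in allogeneic against syngeneic libraries (adjusted p = 0.00981; -2.62 without syngeneic replicate 1), and its adaptor Tyrobp was not called there.

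**Figure D3:**
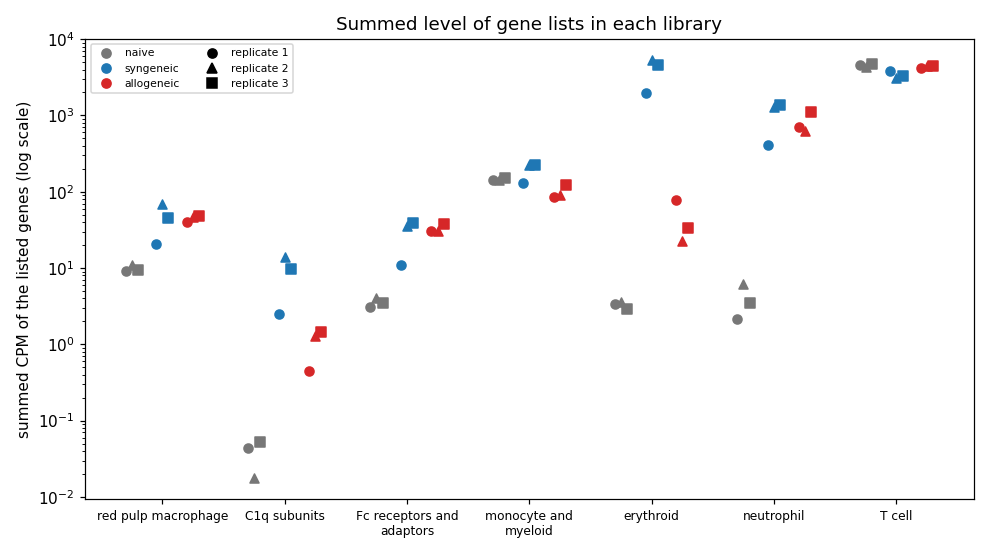
Summed CPM (log scale) of 4 groups of the macrophage and monocyte genes and of erythroid, neutrophil and T-cell markers in each library; colour gives the group and shape the replicate. Syngeneic replicate 1 (blue circle) is the lowest syngeneic library for each myeloid and erythroid list and the highest for T-cell markers, and the Fc receptor sums of allogeneic libraries, 30.2 to 37.3 CPM, lie within the syngeneic range of 11 to 38.9 CPM.

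The syngeneic libraries differed from each other in which genes were high. Replicate 2 held the highest of the 3 syngeneic values for 24 of the 30 genes, and the ratio of replicate 2 to replicate 3 was above 1 for all 9 red pulp genes, with a median of 1.59 and a range of 1.21 (Hmox1) to 2.30 (Cd163). Over all 30 genes the ratio was above 1 for 25, including all 3 C1q genes (median 1.48) and 3 of 4 lipid genes (median 1.42). Of the 5 Fc receptor and adaptor genes 2 had a ratio above 1, with a median of 0.899. Of the 5 monocyte and myeloid genes 4 had a ratio above 1, with a median of 1.17, and Lyz2 was the lowest at 0.958. Among 15 other monocyte genes the median ratio was 1.03, with 10 above 1, and among 8 genes of Fc receptor and TYROBP signalling it was 0.892, with 1 above 1. The ratio was also above 1 for 5 of 7 heme and iron genes, 7 of 9 uptake genes and 8 of 11 phagolysosome genes. The share over all genes is not given here, so these counts do not set the 30 genes apart. Syngeneic replicates 2 and 3 had erythroid sums of 5364 and 4567 CPM and neutrophil sums of 1286 and 1390 CPM. These ratios describe 2 libraries and carry no replicate error.

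**Figure D4:**
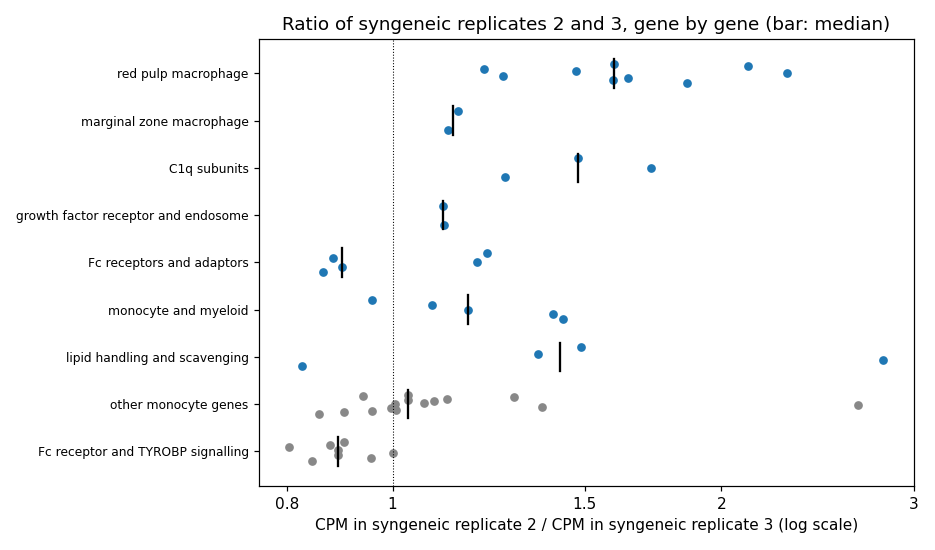
Ratio of CPM in syngeneic replicate 2 to that in replicate 3 for each gene (points) by role, on a log axis, with the median as a bar; blue points are the 30 genes and grey points are other listed genes. All red pulp, marginal zone and C1q genes lie right of 1, with red pulp ratios from 1.21 to 2.30, and the signalling genes lie mostly left of 1.

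Other genes linked to the same cells, not all of them restricted to these cells, were read from fixed lists. Over all genes tested, 22.4% were called higher in syngeneic and 31.8% in allogeneic against naive libraries. Between the transplant groups 24.3% were called higher and 20.7% lower. Of 15 other monocyte genes, all rose in syngeneic against naive libraries, 13 rose in allogeneic against naive libraries, and 3 rose and 9 fell in allogeneic against syngeneic libraries. Their summed level was 114 to 122 CPM in naive, 379 to 602 CPM in syngeneic libraries and 504 to 600 CPM in allogeneic ones. The part of T cells in these sums and counts was not tested. Treml4, a receptor of patrolling monocytes, fell most between the transplant groups (-3.82 ± 0.74, adjusted p = 0.00158), and Chil3, a chitinase-like protein that neutrophils and monocytes make, rose most (1.63 ± 0.33, adjusted p = 0.00198). Without syngeneic replicate 1 the last counts were 3 higher and 12 lower.

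Csf1, a growth factor of the lineage, rose where its receptor gene fell. Of 11 tested regulators and growth factors, 8 rose and 1 fell in syngeneic and 9 rose and 1 fell in allogeneic against naive libraries. Between the transplant groups 2 rose and 2 fell, or 1 and 5 without syngeneic replicate 1. Over all genes tested, the shares called higher and lower were 22.4% and 19.5%, 31.8% and 25.9%, and 24.3% and 20.7% in these comparisons. Csf1, the ligand of CSF1R, was at 4.84, 6.05 and 5.24 CPM in naive, 3.51, 5.13 and 6.20 CPM in syngeneic libraries and 154, 185 and 131 CPM in allogeneic ones. It rose by 5.01 ± 0.20 in allogeneic against syngeneic libraries (adjusted p = 2.06e-08), where Csf1r fell. Il34, the other ligand, had 17, 15 and 3 counts over the naive, syngeneic and allogeneic groups and did not pass the filter; its allogeneic level was 0.174 times the syngeneic level (95% exact interval 0.0323 to 0.615). Spi1, which encodes PU.1, was at 0.072 to 0.183 CPM in naive, 5.57 to 17.4 CPM in syngeneic libraries and 7.01 to 8.97 CPM in allogeneic ones. Its difference of -0.63 ± 0.33 between the transplant groups was not called (adjusted p = 0.143), and was called without syngeneic replicate 1 (-0.95, adjusted p = 0.00372). The word of PU.1 was the one searched in the promoters above.

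The iron and uptake lists went in both directions between the transplant groups, where 24.3% of all genes were called higher and 20.7% lower. The shares called higher against naive were 22.4% in syngeneic and 31.8% in allogeneic libraries. Of 7 genes of heme and iron recycling, 5 rose in either transplant group against naive, Blvrb in the allogeneic group by 1.32 (adjusted p = 0.0437) and by 0.47 without allogeneic replicate 1 (0.347), and 1 rose and 3 fell in allogeneic against syngeneic libraries (1 and 4 without syngeneic replicate 1). Blvrb, a biliverdin reductase also abundant in red cell precursors, fell most between the transplant groups (-2.79 ± 0.52, adjusted p = 0.00125), Blvra, the other biliverdin reductase, rose (0.49 ± 0.11, adjusted p = 0.0044), and Slc40a1, the iron exporter ferroportin, fell by 2.21 ± 0.44 (-2.21, adjusted p = 0.00195). Of 8 tested genes of apoptotic cell uptake, 4 rose and 1 fell between the transplant groups, and 4 rose and 3 fell of 9 tested without syngeneic replicate 1. Gas6, a ligand of AXL and MERTK, rose by 3.21 ± 0.40 (adjusted p = 7.84e-05), from 0.0827 ± 0.0255 to 0.76 ± 0.162 CPM (SD, n = 3), and Cd36, a scavenger receptor also found in red cell precursors, fell by 4.60 ± 0.40 (-4.60, adjusted p = 5.05e-06). Timd4 had 0, 52 and 1 counts over the naive, syngeneic and allogeneic groups and Vsig4 had 0, 6 and 0, and neither passed the filter.

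Lysosomal and signalling genes had high levels in naive libraries and another order of groups. Over all genes tested, 24.3% were called higher and 20.7% lower between the transplant groups. Against naive, 22.4% were called higher in syngeneic and 31.8% in allogeneic libraries. Of 11 phagolysosome genes, 5 rose and 3 fell in allogeneic against syngeneic libraries, among which Gpnmb, a lysosomal glycoprotein, rose most (2.30 ± 0.31, adjusted p = 0.000147) and Ctsh, cathepsin H, fell most (-1.62 ± 0.43, adjusted p = 0.00968). Their summed level was 919 to 1019 CPM in naive, 848 to 948 CPM in syngeneic libraries and 1848 to 1912 CPM in allogeneic ones, of which the protease gene Ctsd alone gave 1171 to 1232 CPM in the last group. Of 8 genes of Fc receptor and TYROBP signalling, 6 rose in syngeneic and all rose in allogeneic against naive libraries, and 3 rose and 1 fell between the transplant groups, or 3 and 3 without syngeneic replicate 1. Syk, the kinase downstream of FCER1G and DAP12, rose most (1.21 ± 0.36, adjusted p = 0.0181, or 0.0981 without allogeneic replicate 3), and the kinase gene Fgr fell (-0.65 ± 0.14, adjusted p = 0.00312).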

How the data were processed

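Total RNA (100 ng, depleted of ribosomal RNA) of 9 libraries was sequenced with a strand-marking kit, per the labels' protocols. The authors deposited counts per gene; per the submitters' processing notes the tools were FastQC 0.11.3, TopHat2 2.0.13, Bowtie2 2.2.1 and HTSeq 0.6.1 with GRCm38, with the annotation release and strand setting of the counting not given in the sources used here. Of 29229 identifiers, 29014 matched GENCODE M21 for names, exon lengths and coordinates. Counts were tested with edgeR 4.0.16 (R 4.3.3): filterByExpr by group, TMM normalization, and quasi-likelihood tests of 3 comparisons in a fit over all 9 libraries, adjusted over 19609 genes by Benjamini-Hochberg at a threshold of 0.05. Standard errors are the log2 fold change divided by the square root of F. CPM are by column total, and intervals are exact at 95%. The fit was tested on simulated data. Alternatives were RLE factors, column totals alone, library sizes without the ribosomal locus, no filter, fits of 2 groups, a replicate block, each library left out, DESeq2 1.42.0 and limma-voom (limma 3.58.1).

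The 30 genes and the lists were chosen with earlier results of these data known. All 30 genes are named; of other lists, the called genes with the largest and smallest log2 fold change in allogeneic against syngeneic libraries are named, and Spi1, Slc40a1, Ctsd, Il34, Timd4, Vsig4 and, among markers of other cells, Siglech, Itgax and Prss34 were added after their values were seen. A result that this rule names is not reported here. Groups follow the sample labels, whose strain field gives the syngeneic recipient strain for all 9 libraries and was not used. Any pooling of naive mice was not given in the sources used here. No label ties a replicate to a separate experiment, so p-values measure the spread between these samples, which may be technical in part.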

Additional observations from a re-analysis of the deposited data

Results flagged for a closer look

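Apoe was the only one of the 30 genes called in opposite directions against naive libraries in the transplant groups. It was at 3.40 ± 0.282 CPM in naive, 6.74 ± 2.11 CPM in syngeneic libraries and 1.79 ± 0.589 CPM in allogeneic ones (SD, n = 3). The difference between the effects was tested directly as allogeneic against syngeneic libraries, which differed by -1.90 ± 0.25 on the log2 scale (edgeR, adjusted p = 0.000106), and it ran from -2.12 to -1.66 when each library was left out.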

How the results depend on the processing

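Counts of called genes among the 30 stayed within 1.5 times their main value in every alternative run. With each library left out, the counts ran from 3 to 4 higher and 17 to 23 lower in allogeneic against syngeneic, 26 to 29 higher and 1 lower in syngeneic against naive, and 17 to 20 higher and 2 to 3 lower in allogeneic against naive libraries. The 30 genes' log2 fold changes were read again in each comparison and alternative. Of these readings 1468 kept sign and call, 30 lost a call, 11 gained one and 14 changed sign. The changes of sign were all of values that were not called. In allogeneic against syngeneic libraries the genes with such changes were Fcgr3 (-0.00943 with column totals, -0.33 to 0.35 with each library left out), Fcgr4 (-0.17 to 0.52) and Cd14 (0.062 with the replicate block, 0.14 by limma-voom, -0.57 to 0.20 with each library left out). In allogeneic against naive libraries they were Spic (-0.24 to 0.18) and Lpl (-0.043 with column totals, -0.21 to 0.28); the cause was not tested. The summed naive level of the 30 genes was 169 CPM, and 165 CPM with TMM-scaled library sizes. With the replicate number as a block, 3 higher and 20 lower, 27 higher and 1 lower, and 19 higher and 2 lower genes were called in the 3 comparisons, as without it. Same-numbered libraries had correlations of deviations from -0.118 to 0.265, and not every library correlated best with its own number, so the numbers were not taken to pair the samples. Depth limits genes under 0.1 CPM in naive libraries, whose fitted fold changes depend on the prior count.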

Other observations

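Markers of dendritic cells, relatives of monocytes, divided in the same libraries. Of 8 tested, 5 fell and 2 rose in allogeneic against syngeneic libraries (edgeR), where 20.7% of all genes were called lower and 24.3% higher. Siglech, a receptor of plasmacytoid dendritic cells, fell by 3.76 ± 0.45 on the log2 scale (adjusted p = 5.36e-05). Itgax, which encodes CD11c and which activated T cells can also express, was at 1.76, 2.32 and 2.62 CPM in naive, 8.93, 14.3 and 16.5 CPM in syngeneic and 142, 226 and 224 CPM in allogeneic libraries, a rise of 3.91 ± 0.22 (adjusted p = 1.6e-07).

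Markers of mast cells and basophils were highest in allogeneic replicate 1. Of the 6 markers, 2 were called higher in allogeneic against syngeneic libraries and 4 were not called (edgeR), where 24.3% of all genes were called higher. Prss34, a basophil protease, was at 0.982, 3.35 and 5.76 CPM in syngeneic and 18.9, 4.30 and 11.1 CPM in allogeneic libraries, and rose by 1.85 ± 0.61 (adjusted p = 0.0294). The 2 groups of Prss34 overlapped, and allogeneic replicate 1 was the highest library.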
